A study of Arabidopsis thaliana with 18 samples.

Results

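SWEET1, SWEET2, SWEET4, SWEET11, SWEET13, SWEET17, SAG29, TMT1 and ATSPS4F were matched by gene symbol, as 8 sugar transporter genes and 1 gene of sucrose synthesis. They were chosen with earlier results of these data known. Each of these 9 genes was read by 1 of the 22810 probe sets on the array, and all 9 probe sets passed the filter on low signals. Leaves of Arabidopsis thaliana were taken from plants that were 2 weeks old and had been held in 150 mM NaCl for 24 hours before treatment. On day 5 and on day 1 there were 3 arrays each from plants given EAA, the ethyl acetate sub-fraction of the brown alga Ascophyllum nodosum, 3 from plants given MEA, its methanol extract, and 3 from control plants given 0.1% aqueous methanol, called the reference here. On this description all 18 arrays come from plants exposed to salt, and no group was analysed as plants without salt. The labels of the 6 reference arrays conflict on the extract and on salt. Their source names give NaCl with no extract, while their titles give EAA without NaCl and their descriptions give EAA. Titles of the arrays grouped as EAA name EAA with NaCl. The grouping follows the source names, on which all contrasts with the reference depend. Samples of a group are titled biological replicates, with nothing on separate plantings, and p-values measure the spread between these samples. Plant age and time after treatment changed together between the days and cannot be told apart.

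SWEET proteins are small membrane transporters that let sugars move down their concentration gradient, either out of a cell or across the vacuolar membrane. In Arabidopsis leaves SWEET11 exports sucrose from phloem parenchyma cells into the cell wall space, from where proton-coupled carriers load it into the phloem. SWEET13 and SAG29, which is also named SWEET15, belong to the same clade of sucrose transporters, and SAG29 is known for its high transcript level in senescing leaves and under salt. SWEET1 and SWEET4 transport glucose at the plasma membrane, SWEET2 and SWEET17 lie in the vacuolar membrane and carry glucose and fructose, and TMT1 pumps hexoses into the vacuole. ATSPS4F encodes a sucrose phosphate synthase, the enzyme that makes the phosphorylated precursor of sucrose in the cytosol.

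The leaf gene RCA, Rubisco activase, lay between 13.3 and 14 on the log2 signal scale on the 18 arrays, and the root hair gene EXPA7 between 2.92 and 3.53. These were the only members with a named probe set among 8 leaf and 8 root markers, and none of 4 phloem markers had one. Replicates of MEA on day 5 had a median SD per probe set of 0.337, and those of the 5 remaining groups 0.126 to 0.201. MEA day 5 replicates 1 and 3 stood apart from their labels' day: over all probe sets tested (no independent replicates) they correlated with the mean of the day 5 reference at 0.903 and 0.891 and with that of the day 1 reference at 0.966 and 0.965. MEA day 5 replicate 2 correlated with these means at 0.959 and 0.858. The difference between the actin control probes of the 3′ and 5′ ends, a measure of how complete the labelled RNA was, stood at 2.78 on EAA day 5 replicate 1, 2.88 on MEA day 5 replicate 1 and 2.30 on MEA day 5 replicate 3, and at 1.56 to 2.03 on the other arrays. For the GAPDH control probes the same difference was 0.79, 1.06 and 0.30 on these 3 arrays, and -0.13 to 0.50 on the others. MEA day 5 replicate 3 thus stood apart by actin and not by GAPDH. The part of either measure in the results was not tested beyond leaving these arrays out. Results that use the MEA day 5 group are given with and without replicates 1 and 3, and results of the other groups also from a model fitted without that group.

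All values below are log2 signals or differences of them. Differences carry the standard error (SE) of the limma fit, and a gene passed where its p-value, adjusted by the Benjamini-Hochberg method over all 13648 probe sets tested, was under 0.05. Signals of different genes come from different probes and are not compared with each other. In leaf samples, fewer cells of a type and less RNA per cell cannot be told apart.

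From day 1 to day 5 the sugar genes of the reference leaves moved widely: SWEET1, SWEET2, SWEET11, SWEET13 and ATSPS4F rose and TMT1 and SWEET17 fell. That is 7 of the 9 genes, 5 higher and 2 lower, against 30.9% of all probe sets tested, 14.1% higher and 16.9% lower. The 3 arrays of day 5 did not overlap the 3 of day 1 in 9 of the 9 genes, against 53.4% of all probe sets. The median difference was 1.44 over the 9 genes and -0.01 over all probe sets. Because of how the 9 genes were chosen, such shares, here and below, describe them and do not test for an excess. In the model without the MEA day 5 group, where 43.9% of probe sets passed, SWEET4 and SAG29 passed too.

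Of the clade of sucrose exporters, SWEET11 had signals of 11.61, 11.89 and 11.85 in the reference on day 5 and 10.54, 10.28 and 10.21 on day 1. Every day 5 array lay above every day 1 array, and the gene rose by 1.44 (SE 0.38, adjusted p = 0.00964). SWEET13 had 8.29, 8.48 and 8.62 on day 5 and 7.38, 7.22 and 7.24 on day 1. The replicates of each day were close together, and SWEET13 rose by 1.18 (SE 0.28, adjusted p = 0.00482). SAG29 had 9.93, 7.85 and 7.33 on day 5 and 6.12, 6.69 and 6.75 on day 1. Replicate 1 was by far the highest of the day 5 arrays, and the difference of 1.86 (SE 1.03) did not pass (adjusted p = 0.181). Without that replicate it was 1.07. Without the MEA day 5 group the SE of that difference was 0.47 and the adjusted p was 0.00539.

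The glucose transporter gene SWEET1 had signals of 8.28, 8.37 and 7.90 in the reference on day 5 and 6.68, 6.99 and 6.34 on day 1. It rose by 1.51 (SE 0.52, adjusted p = 0.0392), but missed the threshold when any of the 6 reference arrays was left out, with differences of 1.35 to 1.67 and adjusted p-values of 0.0552 to 0.121. SWEET4 had 6.89, 5.53 and 7.01 on day 5 and 7.45, 7.44 and 7.39 on day 1. The day 1 arrays were nearly equal, day 5 replicate 2 was far below the other day 5 arrays, and the difference of -0.95 (SE 0.53) did not pass (adjusted p = 0.181). Without that replicate it was -0.48 (adjusted p = 0.533). Without the MEA day 5 group SWEET4 passed (SE 0.31, adjusted p = 0.0235).

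Genes of the vacuolar membrane moved in both directions in the reference. SWEET2, a vacuolar glucose transporter gene, had 5.58, 6.30 and 5.80 on day 5 and 3.89, 4.34 and 4.01 on day 1. It rose by 1.82 (SE 0.26, adjusted p = 0.000154), although its day 1 mean of 4.08 was close to the filter value of 4.01. SWEET17, the fructose transporter gene, had 7.48, 7.71 and 7.12 on day 5 and 8.16, 7.80 and 8.0 on day 1. The highest day 5 array and the lowest day 1 array were close, without overlap. SWEET17 fell by 0.55 (SE 0.18, adjusted p = 0.0325). It missed the threshold without reference day 1 replicate 1 (-0.46), day 1 replicate 3 (-0.54), day 5 replicate 1 (-0.57) or day 5 replicate 3 (-0.39), and with every array centred on its median (-0.46, adjusted p = 0.0719). TMT1 had 4.58, 5.36 and 5.33 on day 5 and 7.95, 7.93 and 7.90 on day 1. TMT1 fell by 2.84 (SE 0.58, adjusted p = 0.00216), a 7.14-fold lower signal on day 5.

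ATSPS4F of sucrose synthesis had 9.04, 9.41 and 8.69 in the reference on day 5 and 7.31, 7.82 and 7.58 on day 1. Every day 5 array was higher than every day 1 array, and ATSPS4F rose by 1.48 (SE 0.19, adjusted p = 7.16e-05).

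**Figure D1:**
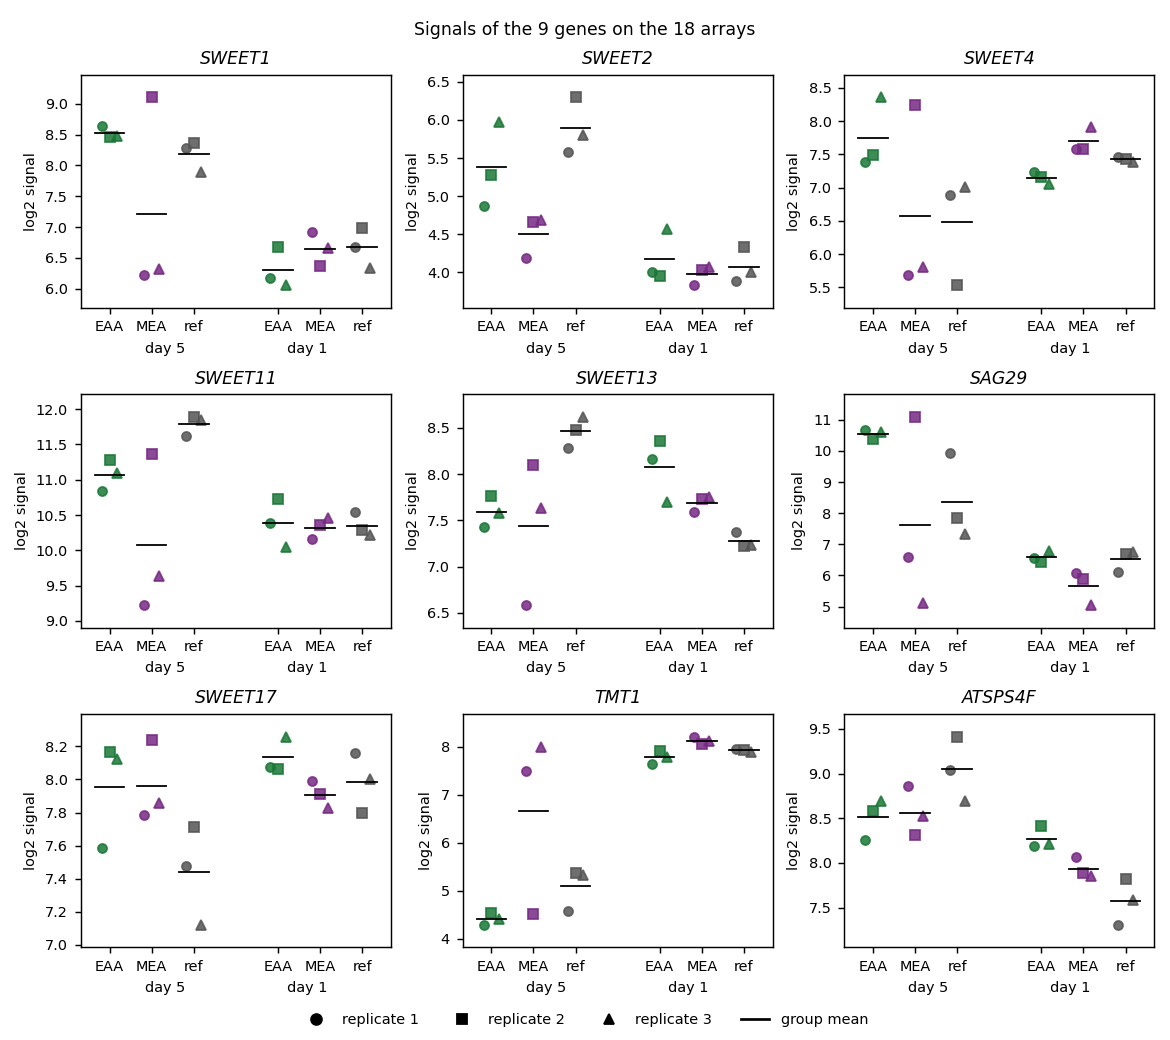
Log2 signal of the 9 genes on the 18 arrays. Each panel is a gene, the horizontal axis gives EAA, MEA and the reference (ref) on day 5 and on day 1, each point is an array, its shape the replicate number, and the line is the group mean. TMT1 lay between 4.29 and 5.36 on the EAA and reference arrays of day 5 and between 7.64 and 7.95 on those of day 1.

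In EAA-treated leaves SWEET1, SWEET2 and SAG29 rose and TMT1 fell from day 1 to day 5, which is 4 of 9 genes against 36.5% of all probe sets tested, 15.7% higher and 20.8% lower. The arrays of the days did not overlap in 6 of the 9 genes, against 56.9% of all probe sets. SAG29 had signals of 10.68, 10.39 and 10.60 with EAA on day 5 and 6.57, 6.42 and 6.80 with EAA on day 1. All 3 day 5 arrays were close together and far above day 1, and SAG29 rose by 3.96 (SE 1.03, adjusted p = 0.00891), a 15.5-fold higher signal. TMT1 had 4.29, 4.53 and 4.40 with EAA on day 5 and 7.64, 7.92 and 7.79 on day 1. Its signal was 10.3-fold lower on day 5, a fall of 3.37 (SE 0.58, adjusted p = 0.000956). SWEET1 had 8.63, 8.47 and 8.48 on day 5 and 6.17, 6.68 and 6.06 on day 1, and it rose by 2.22 (SE 0.52, adjusted p = 0.00518). SWEET2 had 4.87, 5.28 and 5.97 on day 5 and 4.0, 3.95 and 4.57 on day 1, and it rose by 1.2 (SE 0.26, adjusted p = 0.00335). Both genes had every day 5 array above every day 1 array.

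The other 5 genes did not pass with EAA. SWEET11 differed by 0.68 (SE 0.38), with 10.84, 11.28 and 11.09 on day 5 and 10.39, 10.72 and 10.05 on day 1. SWEET13 had 7.43, 7.77 and 7.58 on day 5 and 8.17, 8.36 and 7.70 on day 1, a difference of -0.48 (SE 0.28). The signs were opposite, with the days apart in SWEET11 and overlapping in SWEET13. Both passed in the model without the MEA day 5 group, where 48% of probe sets did, at adjusted p-values of 0.00385 for SWEET11 and 0.0172 for SWEET13. ATSPS4F had 8.26, 8.58 and 8.70 with EAA on day 5 and 8.19, 8.41 and 8.21 on day 1. These overlapped, with a difference of 0.24 and a 95% interval of -0.17 to 0.66. SWEET4 (0.60) and SWEET17 (-0.18) did not pass in either model.

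With MEA no gene of the 9 passed between the days in limma's test, against 3.92% of all probe sets, and 2 of them, TMT1 and ATSPS4F, had an unadjusted p under 0.05, as 2786 of the 13648 probe sets did. The replicates of MEA on day 5 disagreed. TMT1 had signals of 7.49, 4.51 and 7.99 with MEA on day 5 and 8.21, 8.05 and 8.12 with MEA on day 1. SAG29 had 6.61, 11.09 and 5.13 with MEA on day 5 and 6.09, 5.88 and 5.05 with MEA on day 1. In both genes replicate 2 alone lay where the EAA arrays of day 5 lay or beyond them, and replicates 1 and 3 lay near the levels of day 1. SWEET1 had 6.23, 9.11 and 6.31 with MEA on day 5 against 6.92, 6.37 and 6.66 on day 1. SWEET11 had 9.23, 11.37 and 9.64 with MEA on day 5 against 10.16, 10.35 and 10.46 on day 1. Replicate 2 was again the highest of the 3 day 5 arrays in these genes. Replicates 1 and 3 each lay nearer the day 1 than the day 5 reference mean in 7 of the 9 genes, and in 62% and 67.4% of all probe sets. For replicate 2 these values were 3 genes and 31.5%, and for the EAA arrays of day 5 they were 3 to 5 genes and 27.1% to 29.3%.

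In SWEET4 and ATSPS4F replicates 1 and 3 lay nearer the day 5 reference mean. Nearer the day 1 mean did not always mean at its level. In SWEET1 and SWEET11 replicates 1 and 3 lay below all 3 MEA arrays of day 1. SWEET4 had 5.68, 8.24 and 5.81 with MEA on day 5 and 7.59, 7.59 and 7.91 with MEA on day 1, so that replicates 1 and 3 lay below all 3 day 1 arrays. ATSPS4F had 8.86, 8.31 and 8.52 with MEA on day 5 and 8.07, 7.89 and 7.86 with MEA on day 1, with all 3 day 5 arrays higher. Its difference of 0.63 (SE 0.19) did not pass (adjusted p = 0.0835). Leaving out MEA day 5 replicate 2, SWEET4 (-1.95), SWEET11 (-0.89) and ATSPS4F (0.75) passed. Leaving out replicate 3, SAG29 (3.18) and TMT1 (-2.12) passed. Shares of all probe sets are not given for these runs. Without replicates 1 and 3 together, where 37.9% of probe sets passed, SWEET1 (2.46), SWEET11 (1.05), SAG29 (5.42) and TMT1 (-3.62) passed, with the remaining array assumed to vary like the other groups.

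**Figure D2:**
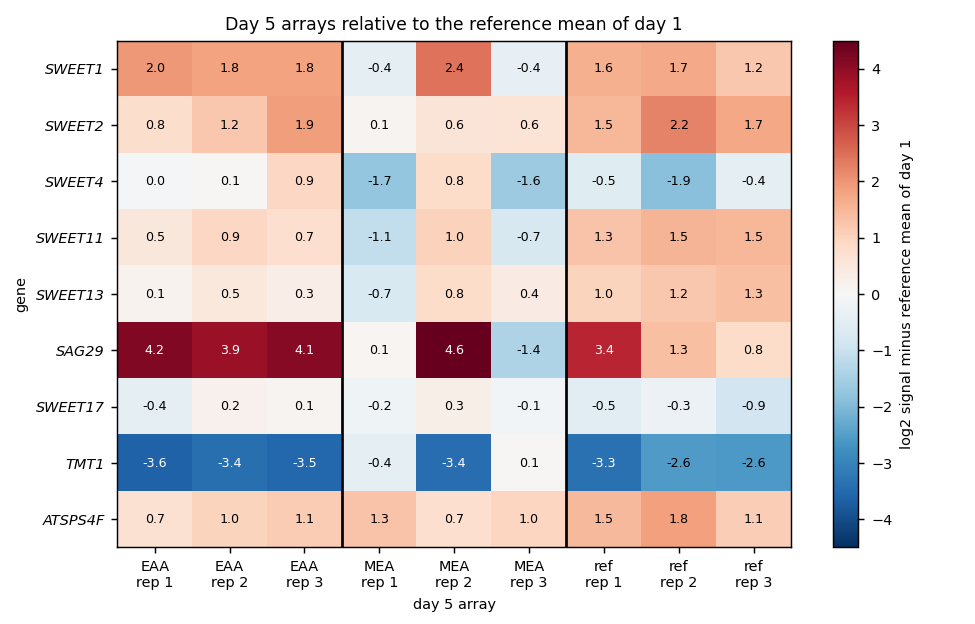
Log2 signal of each gene (rows) on the 9 arrays of day 5 (columns: EAA, MEA and reference, replicates 1 to 3) minus the mean of the day 1 reference, with the value printed in each cell and red for higher. MEA replicate 2 has -3.4 for TMT1 and 4.6 for SAG29, while MEA replicates 1 and 3 lie between -1.4 and 0.1 in these genes.

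**Figure D3:**
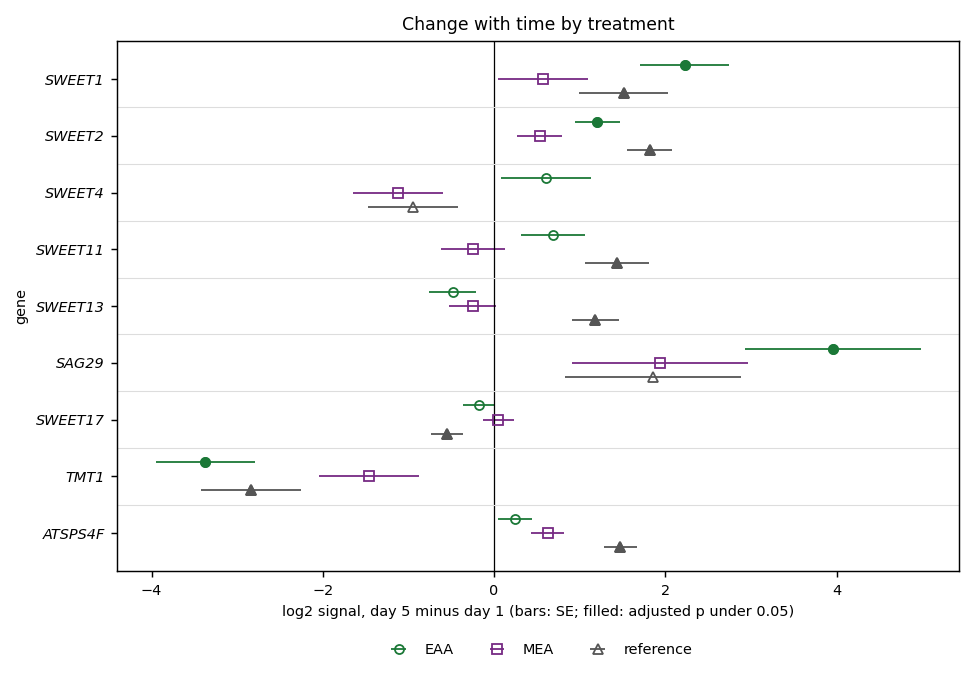
Difference in log2 signal between day 5 and day 1 (horizontal axis) for each gene (vertical axis) with EAA, MEA and in the reference, from the model of all 18 arrays. Points are differences, bars are the SE, and filled points had an adjusted p under 0.05. SWEET13 stands at -0.48 with EAA, -0.25 with MEA and 1.18 in the reference.

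Against the reference of the same day, EAA gave no gene of the 9 that passed on day 5, against 0% of all probe sets. By unadjusted p under 0.05 there were 4 of the 9 (SWEET4, SWEET13, SWEET17 and ATSPS4F) and 1017 of all. EAA and reference arrays did not overlap in 6 of the 9, SWEET1, SWEET4 and SAG29 higher and SWEET11, SWEET13 and TMT1 lower, against 13.9% of all probe sets. SWEET13 had 7.43, 7.77 and 7.58 with EAA on day 5, against 8.29, 8.48 and 8.62 in the reference. All 3 EAA arrays were lower, by 0.87 on average (SE 0.28, adjusted p = 0.542). SWEET11 had 10.84, 11.28 and 11.09 with EAA against 11.61, 11.89 and 11.85 in the reference, again with all EAA arrays lower and a difference of -0.71 (SE 0.38). SAG29 had 10.68, 10.39 and 10.60 with EAA against 9.93, 7.85 and 7.33 in the reference, with all EAA arrays higher and a difference of 2.18 (SE 1.03).

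In the model without the MEA day 5 group, 3 of the 9 genes passed on day 5 against 1.58% of all probe sets. With EAA SWEET13 was lower by 0.87 (SE 0.15, adjusted p = 0.0106) and SWEET11 lower by 0.71 (SE 0.17, adjusted p = 0.0494). SAG29 was higher by 2.18 (SE 0.47, adjusted p = 0.0339). These rest on few arrays. When each of the 6 arrays compared was left out of that model in turn, SWEET13 passed in 5 and missed without reference replicate 3 (-0.79, adjusted p = 0.0608). SAG29 passed only without reference replicate 1 (2.96), and stood at 1.66 without reference replicate 3 and 1.92 without reference replicate 2. Leaving out any single EAA array gave SAG29 differences of 2.12 (replicate 1), 2.27 (replicate 2) and 2.16 (replicate 3). SWEET11 passed without reference replicate 1 (-0.80) or EAA replicate 2 (-0.81), and missed without reference replicate 2 (-0.66), reference replicate 3 (-0.68), EAA replicate 1 (-0.60) or EAA replicate 3 (-0.72). Without reference replicate 1, SWEET4 (1.48) and TMT1 (-0.93) passed as well. In a model of the 6 arrays compared alone none of the 9 passed, against 0.0293% of all probe sets.

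SWEET4 had 7.39, 7.48 and 8.36 with EAA on day 5, against 6.89, 5.53 and 7.01 in the reference. All EAA arrays were higher, by 1.27 on average (SE 0.53), which did not pass in the model of 18 arrays (adjusted p = 0.61). The SWEET4 difference was 0.80 without reference replicate 2, the lowest of the 6 arrays. TMT1 had 4.29, 4.53 and 4.40 with EAA against 4.58, 5.36 and 5.33 in the reference, and differed by -0.68 (SE 0.58). SWEET1 differed by 0.34, SWEET2 by -0.52, SWEET17 by 0.52 and ATSPS4F by -0.53. The last 3 had overlapping arrays.

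On day 1 EAA gave no gene of the 9 that passed against the reference, against 0.022% of all probe sets, and SWEET13 and ATSPS4F were the 2 with an unadjusted p under 0.05, which 436 of all 13648 had. SWEET13 had 8.17, 8.36 and 7.70 with EAA on day 1, against 7.38, 7.22 and 7.24 in the reference. ATSPS4F had 8.19, 8.41 and 8.21 with EAA, against 7.31, 7.82 and 7.58 in the reference. In both genes every EAA array was higher, by 0.80 (SE 0.28, adjusted p = 1) in SWEET13 and by 0.70 (SE 0.19, adjusted p = 0.867) in ATSPS4F. SWEET4 had 7.23, 7.15 and 7.05 with EAA against 7.45, 7.44 and 7.39 in the reference, with every EAA array lower (-0.28). These 3 of 9 genes without overlap compare with 18.6% of all probe sets. A model of the 9 arrays of day 1 alone, chosen after the values were seen, had a smaller spread. There 2 of the 9 genes passed against 1.41% of all probe sets, SWEET13 (SE 0.14, adjusted p = 0.0164) and ATSPS4F (SE 0.13, adjusted p = 0.0187). In the model without the MEA day 5 group neither passed, at adjusted p-values of 0.0554 for SWEET13 and 0.184 for ATSPS4F, and 0.183% of probe sets did.

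By group means, SWEET13 and ATSPS4F lay above the reference with EAA on day 1 and below it on day 5, where ATSPS4F arrays overlapped. The test of that difference is the change with time in EAA less the change with time in the reference. In the model of all 18 arrays no gene of the 9 passed it, against 0.00733% of all probe sets. SWEET13, at -1.67 (SE 0.39, adjusted p = 0.369), and ATSPS4F, at -1.23 (SE 0.27, adjusted p = 0.369), were the 2 with an unadjusted p under 0.05, which 650 of all 13648 had. SWEET4 stood at 1.55 (SE 0.74), or 1.08 without reference day 5 replicate 2, and SAG29 at 2.1 (SE 1.46). Without the MEA day 5 group 2 of the 9 genes passed against 0.718% of all probe sets, SWEET13 (SE 0.22, adjusted p = 0.00358) and ATSPS4F (SE 0.25, adjusted p = 0.036). When each of the 12 arrays was left out of that model in turn, SWEET13 passed in all 12, at -1.85 to -1.52. ATSPS4F passed in 4, without reference day 1 replicate 2 (-1.36), reference day 5 replicate 1 (-1.24), reference day 5 replicate 3 (-1.41) or EAA day 5 replicate 3 (-1.32), and its adjusted p lay between 0.0536 and 0.101 in the other 8. SAG29 (2.88) and TMT1 (-0.79) passed without reference day 5 replicate 1.

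**Figure D4:**
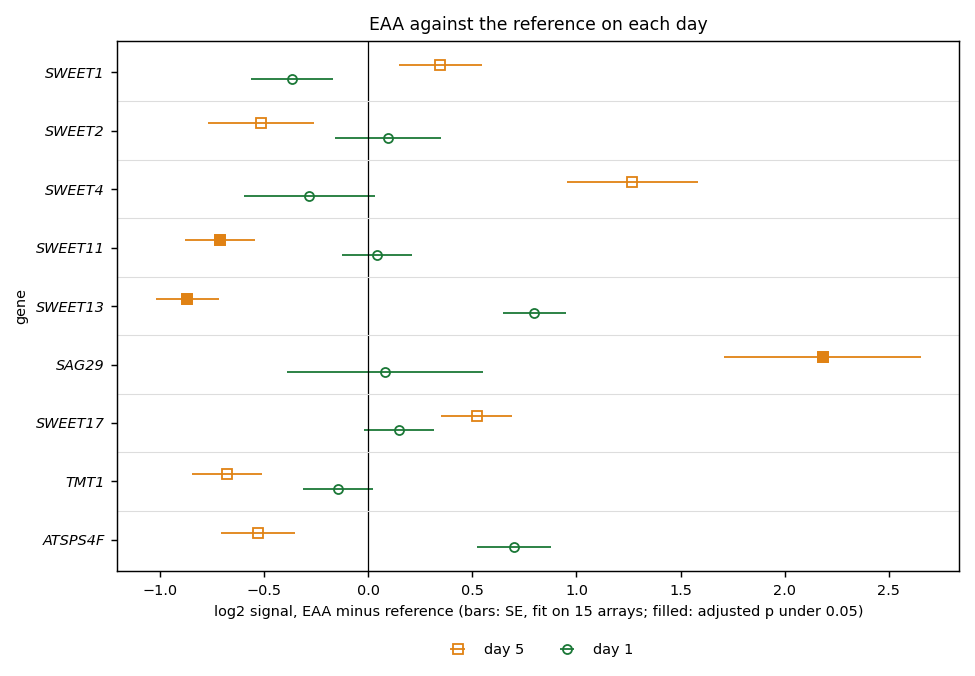
Difference in log2 signal between EAA and the reference (horizontal axis) for each gene (vertical axis), on day 5 and on day 1, from the model of 15 arrays without the MEA day 5 group. Points are differences, bars are the SE, and filled points had an adjusted p under 0.05. SWEET13 stands at -0.87 on day 5 and 0.80 on day 1, and ATSPS4F at -0.53 on day 5 and 0.70 on day 1.

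MEA against the reference used the same reference arrays. On day 5, 3 of the 9 genes passed, all lower, against 10.7% of all probe sets in either direction and 6.65% lower. SWEET2 had 4.19, 4.66 and 4.69 with MEA on day 5, against 5.58, 6.30 and 5.80 in the reference. It was lower with MEA by 1.38 (SE 0.26, adjusted p = 0.00597). SWEET11 was lower by 1.71 (SE 0.38, adjusted p = 0.0124). SWEET13 had 6.59, 8.10 and 7.64 with MEA, against 8.29, 8.48 and 8.62 in the reference. It was lower by 1.02 (SE 0.28, adjusted p = 0.0303). In each of these 3 genes all MEA arrays, replicate 2 included, were below all reference arrays. The arrays did not overlap in 4 of the 9 genes, against 16.6% of all probe sets. The fourth was SWEET17, which had 7.79, 8.24 and 7.85 with MEA against 7.48, 7.71 and 7.12 in the reference and differed by 0.52 (SE 0.18, adjusted p = 0.0784). TMT1 differed by 1.57 (SE 0.58, adjusted p = 0.0946).

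These day 5 differences depended on the MEA arrays used. Without MEA day 5 replicates 1 and 3, 2 of the 9 genes passed against 6.69% of all probe sets, SWEET4 at 1.77 (adjusted p = 0.0274) and SAG29 at 2.72 (adjusted p = 0.0252). In that model SWEET2 stood at -1.23 (adjusted p = 0.0546), SWEET11 at -0.41, SWEET13 at -0.36 and TMT1 at -0.58. Without replicate 2 instead, SWEET1 (-1.91), SAG29 (-2.51) and TMT1 (2.65) passed beside SWEET2, SWEET11 and SWEET13. That run kept only MEA replicates 1 and 3, which correlated more with the day 1 than with the day 5 reference. Its share of all probe sets is not given here. SWEET13 missed without MEA replicate 1 (-0.59), MEA replicate 3 (-1.12), reference replicate 2 (-1.01) or reference replicate 3 (-0.94). SWEET11 missed without MEA replicate 1 (-1.28), MEA replicate 3 (-1.49) or reference replicate 3 (-1.67). SWEET2 passed with any single array left out. In a model of the 6 arrays compared alone none of the 9 passed, against 0% of all probe sets. Adjusted p-values there were 0.333 for SWEET2, 0.38 for SWEET11 and 0.407 for SWEET13.

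On day 1 MEA gave no gene of the 9 that passed against the reference in limma's test, against 0% of all probe sets. None had an unadjusted p under 0.05 and 169 of all probe sets did. Differences lay between -0.84 (SAG29, 95% interval -3.04 to 1.35) and 0.41 (SWEET13, 95% interval -0.17 to 1.00). The narrowest interval was that of SWEET17, -0.47 to 0.31. In the model of the 9 arrays of day 1 none passed either, against 0.00733% of all probe sets, and 4 of the 9 had an unadjusted p under 0.05, as did 1003 of all 13648. SWEET13 had 7.59, 7.73 and 7.75 with MEA on day 1 and ATSPS4F had 8.07, 7.89 and 7.86, in both cases with every MEA array above the reference arrays of that day. The arrays did not overlap in 5 of the 9 genes (SWEET4, SWEET13, TMT1 and ATSPS4F higher, SAG29 lower), against 11.7% of all probe sets.

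The change with time in MEA less that in the reference passed for no gene of the 9, against 0.103% of all probe sets, while 5 of the 9 (SWEET2, SWEET11, SWEET13, SWEET17 and ATSPS4F) had an unadjusted p under 0.05, as 1902 of the 13648 probe sets did. SWEET13 stood at -1.43 (SE 0.39) and SWEET11 at -1.68 (SE 0.53). Without MEA day 5 replicates 1 and 3, where 2.33% of probe sets passed, SAG29 passed at 3.57 (SE 0.82, adjusted p = 0.037).

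EAA against MEA gave 1 gene of the 9 on day 5, TMT1, against 3.85% of all probe sets. TMT1 had 4.29, 4.53 and 4.40 with EAA and 7.49, 4.51 and 7.99 with MEA. It was lower by 2.25 with EAA (SE 0.58, adjusted p = 0.0459). MEA replicate 2 lay within the EAA range. The call was lost when EAA replicate 1 (-2.19), EAA replicate 2 (-2.32), EAA replicate 3 (-2.25), MEA replicate 1 (-1.84) or MEA replicate 3 (-1.59) was left out. Without MEA replicate 2, TMT1 stood at -3.33 (adjusted p = 1.03e-08) and SAG29 passed at 4.69 (adjusted p = 1.15e-05). Only MEA replicates 1 and 3 remained in that run, and its share of all probe sets is not given. SAG29 had 10.68, 10.39 and 10.60 with EAA and 6.61, 11.09 and 5.13 with MEA, and its difference of 2.95 (SE 1.03) did not pass (adjusted p = 0.0908). Without MEA replicates 1 and 3 no gene of the 9 passed, against 0.205% of all probe sets, and TMT1 stood at -0.10. On day 1 no gene of the 9 passed between EAA and MEA, against 0.022% of all probe sets, and none had an unadjusted p under 0.05, which 324 of all did. SWEET4 had 7.23, 7.15 and 7.05 with EAA and 7.59, 7.59 and 7.91 with MEA on day 1. Every EAA array was lower, by 0.55 on average (SE 0.53). In the model of the 9 arrays of day 1, SWEET4 was the 1 gene of the 9 that passed (SE 0.11, adjusted p = 0.0416), against 0.784% of all probe sets. There 5 of the 9 had an unadjusted p under 0.05, as did 1442 of all 13648. A p-value above the threshold does not show that the extracts act alike, and for SAG29 on day 1 the 95% interval of the difference was -1.26 to 3.12.

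Over the 6 groups the order of mean levels differed from gene to gene. On day 5 SAG29 averaged 10.6 ± 0.154 with EAA, 7.61 ± 3.11 with MEA and 8.37 ± 1.38 in the reference (SD, n = 3 here and below), and on day 1 6.60 ± 0.189 with EAA, 5.67 ± 0.549 with MEA and 6.52 ± 0.345 in the reference. EAA on day 5 was the highest group and did not overlap the next, the reference on day 5, and MEA on day 1 was the lowest and did not overlap the reference of that day. The other neighbours in the order overlapped. SWEET11 averaged 11.1 ± 0.216 with EAA, 10.1 ± 1.14 with MEA and 11.8 ± 0.150 in the reference on day 5. The reference was the highest group and EAA came next, without overlap of these or of EAA with its lower neighbour, and the 3 groups of day 1 overlapped at 10.4 ± 0.339 (EAA), 10.3 ± 0.153 (MEA) and 10.3 ± 0.175 (reference). SWEET13 averaged 7.59 ± 0.170 with EAA, 7.44 ± 0.778 with MEA and 8.46 ± 0.167 in the reference on day 5, and 8.08 ± 0.340 with EAA, 7.69 ± 0.0863 with MEA and 7.28 ± 0.0841 in the reference on day 1. The reference was thus both the highest group, on day 5, and the lowest, on day 1, and every pair of neighbours in the order overlapped. SWEET4 was highest with EAA on day 5 (7.75 ± 0.537) and lowest in the reference on day 5 (6.48 ± 0.821). Its day 1 groups lay between these in the order MEA, reference and EAA, with no overlap among them.

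SWEET1 averaged 8.53 ± 0.0922 with EAA, 7.22 ± 1.64 with MEA and 8.18 ± 0.249 in the reference on day 5, above the day 1 groups (6.30 ± 0.329 with EAA to 6.67 ± 0.325 in the reference), and among neighbours in the order EAA and the reference on day 5 alone did not overlap. SWEET2 averaged 5.38 ± 0.556 with EAA, 4.51 ± 0.282 with MEA and 5.89 ± 0.367 in the reference on day 5. The reference was highest and overlapped EAA, and EAA did not overlap MEA. TMT1 was highest with MEA on day 1 (8.13 ± 0.0767), just above the reference on day 1 (7.93 ± 0.0291) with no overlap, and lowest with EAA on day 5 (4.41 ± 0.121), below the reference on day 5 (5.09 ± 0.440), again with no overlap. ATSPS4F averaged 8.51 ± 0.227 with EAA, 8.56 ± 0.276 with MEA and 9.05 ± 0.362 in the reference on day 5, with overlap between neighbours. On day 1 it was ordered EAA (8.27 ± 0.121), MEA (7.94 ± 0.113) and reference (7.57 ± 0.257), with no overlap between neighbours. SWEET17 had group means from 8.13 ± 0.108 with EAA on day 1 to 7.44 ± 0.299 in the reference on day 5, and that last group alone did not overlap its neighbour.

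The remaining members of the SWEET family gave little signal in these leaves. Of 17 SWEET genes, 16 had a named probe set and 7, those described above, passed the filter on low signals. The other 9 had means over the 18 arrays between 3.11 and 3.73, under the filter value of 4.01. They were not tested. These means were 3.73 for SWEET10, which lies beside SWEET13 on its chromosome, and 3.70 for the vacuolar SWEET16, whose highest single signals were 4.19 and 4.36. The others were SWEET3 (3.59), SWEET5 (3.25), SWEET6 (3.31), SWEET7 (3.11), SWEET8 (3.26), SWEET9 (3.17) and SWEET14 (3.26). SWEET12, the partner of SWEET11 in phloem loading, is not named in the annotation used here.

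Few genes of the wider sugar transport and sucrose pathways were named on the array. Of 8 other genes tested, 5 passed with time in the reference, 2 higher and 3 lower, against 30.9% of all probe sets, 14.1% higher and 16.9% lower. TMT2, a relative of TMT1 in the vacuolar membrane, had 7.75, 7.52 and 7.46 on day 5 and 8.25, 8.04 and 8.09 on day 1 and fell by 0.55 (SE 0.15, adjusted p = 0.0132). It missed the threshold without reference day 1 replicate 1 (-0.49) or day 5 replicate 3 (-0.49). VGT2, a gene of the vacuolar glucose transporter family, rose by 1.05 (SE 0.24), and the sugar porter gene SFP2 rose by 1.02 (SE 0.23). STP3, a monosaccharide-proton symporter gene of the plasma membrane, fell by 0.95 (SE 0.17), and VIN1, annotated as a vacuolar invertase that splits sucrose, fell by 0.91 (SE 0.20). SFP1, XPT, a plastid sugar phosphate translocator gene, and SPP2, a sucrose phosphatase gene, did not pass. RCA also rose, by 0.55 (SE 0.11).

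With EAA 2 of these 8 genes passed with time, against 36.5% of all probe sets. They were STP3, which fell by 0.95, and VGT2, which rose by 0.65 (adjusted p = 0.0446). VGT2 missed without any one of the EAA arrays except day 5 replicate 1, at 0.58 to 0.71. With MEA none passed with time, against 3.92% of all probe sets. Against the reference on day 5, MEA gave 2 of the 8, against 10.7% of all probe sets, STP3 (0.57, adjusted p = 0.0453) and TMT2 (0.50, adjusted p = 0.0468), both higher. STP3 had 8.11, 7.56 and 7.57 with MEA on day 5 and 7.36, 7.12 and 7.06 in the reference. Without MEA day 5 replicates 1 and 3, STP3 stood at 0.38 and did not pass, and TMT2 passed at 0.77 (adjusted p = 0.00753). No gene of the 8 passed for EAA against the reference on either day, for MEA against the reference on day 1 or between EAA and MEA, and 1 (EAA, day 5), 0 (EAA, day 1), 0 (MEA, day 1), 2 (EAA against MEA, day 5) and 0 (EAA against MEA, day 1) had an unadjusted p under 0.05. Of 12 senescence markers listed, 9 had no named probe set and 2 were tested, the regulator genes WRKY53 and WRKY6. Neither passed with time in the reference, at 0.40 and -0.22. In the reference on day 5 their signals ran from 5.03 to 7.33 (WRKY53) and from 4.75 to 6.37 (WRKY6). The senescence gene SAG101 was under the filter value with a mean of 3.78.

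The genes most like each of the 9 in their pattern were taken by Pearson's r over the 18 arrays among 1053 probe sets with a gene symbol. Such an r mostly follows the split between the days, and arrays share their group and day. For TMT1 they were BGLU44 (0.99), TUB5 (0.99) and PORB (0.98). SWEET1 was nearest to PCME (0.97), SKP2A (0.95) and ARD4 (0.94), and SAG29 to UBC32 (0.95), SKP2A (0.95) and AR791 (0.94). SKP2A thus stood beside both. Within the 9 arrays of day 1, PCME still had an r of 0.85 with SWEET1 and PORB 0.77 with TMT1, while SKP2A had 0.10 with SWEET1 and BGLU44 -0.26 with TMT1. SWEET2 was nearest to AGL24 (0.96), SP1L4 (0.94) and Cpn60beta2 (0.91), and ATSPS4F to TRY (0.90), AGL24 (0.85) and rbcL (0.85). SWEET11 was nearest to ATSBT5.2, PRH75 and TET2 (0.89 each). SWEET4 (EULS3 0.85, ZW9 0.83, GEM 0.78), SWEET13 (PEX4 0.77, RBP45B 0.77, CHX20 0.76) and SWEET17 (AIM1 0.77, NQR 0.75, TMT2 0.71) had lower values.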

How the data were processed

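The deposited table holds log2 signals of 18 Affymetrix arrays, as judged from the range of every column. Each reaction started from 10 µg of total RNA, per the labels' protocols. MAS5 is named without a version, per the submitters' processing notes, and the normalization is not given in the sources used here. Values were used as deposited. Gene names came from the platform annotation, in which 13513 of 22810 probe sets had 1 gene, 503 several and 8794 none here; 13436 of the first matched a RefSeq table of TAIR10.1. The files name no genome build, so no coordinates are given. Of 22746 probe sets without the 64 controls, 13648 with a mean log2 signal at or above the 40th percentile (4.01) were tested and 9098 were not.

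A model with 1 mean per group was fitted in limma 3.58.1 (R 4.3.3) using eBayes with trend; 12 degrees of freedom were residual and the median prior was 3.25. Its 11 contrasts share 1 spread per probe set over all 6 groups, MEA day 5 included. The number of arrays limits precision. The model was tested on simulated data. Plots used Python 3.11.15, pandas 2.3.3 and matplotlib 3.10.9. The genes described and the pathway lists were chosen with earlier results of these data known. All 9 genes were named; of the listed others, up to 4 per list and contrast with the smallest adjusted p that passed, and for each of the 9 the 3 most correlated probe sets with a symbol. Alternatives were other filters, scalings, variance models, array sets, array weights, a replicate block and each array left out. Deviations of same-numbered arrays correlated at -0.44 to 0.43 over 27 pairs, 7 of them over 0.1, so replicate numbers were not taken to pair arrays.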

Additional observations from a re-analysis of the deposited data

Results flagged for a closer look

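In 2 genes all arrays of an extract lay on opposite sides of all reference arrays on the 2 days. The share of all probe sets with this pattern is not given, so whether it is unusual was not tested. On single days, EAA and reference arrays did not overlap in 13.9% (day 5) and 18.6% (day 1) of all probe sets. For MEA these shares were 16.6% (day 5) and 11.7% (day 1). SWEET13 was lower than the reference with EAA on day 5 and higher on day 1, a difference between the days of -1.67 (SE 0.39, adjusted p = 0.369 in the model of all 18 arrays, 0.00358 without the MEA day 5 group). SWEET13 was also lower with MEA on day 5 and higher with MEA on day 1, a difference between the days of -1.43 (SE 0.39, adjusted p = 0.127). Without MEA day 5 replicates 1 and 3 the only MEA array left for day 5 still lay below the reference arrays, at 8.10 against 8.29 to 8.62. SWEET4 was higher with EAA on day 5 and lower with EAA on day 1, a difference between the days of 1.55 (SE 0.74, adjusted p = 0.996), and missed the threshold without the MEA day 5 group too (adjusted p = 0.144). Without reference day 5 replicate 2, the SWEET4 difference on day 5 was 0.80 instead of 1.27, and the difference between the days 1.08. The EAA and MEA differences use the same reference arrays.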

How the results depend on the processing

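No difference of the 9 genes or of the other genes that passed in the model of all 18 arrays changed sign in any alternative run. In the settings other than leaving out 1 array, such a difference missed the threshold 12 times among the 9 genes (123 times it passed). Most of these misses were in contrasts with the MEA day 5 group. Among the other genes it missed 12 times (78 times it passed). With 1 array left out it missed 22 times among the 9 genes (68 times it passed) and 15 times among the other genes (45 times it passed). The cause was not tested. Median centring and quantile normalization, and dropping the intensity trend, left each count of all members that passed within 1.5 times. Between EAA and MEA on day 5 the count was 0 without a filter (1.32% of all probe sets) and 0 with a filter at the 20th percentile (2.16%). It was 0 in the arrays compared only (0%), and 1 in the model of all 18 arrays. It was 7 with array weights, where 45.5% of all probe sets passed, and 0 without MEA day 5 replicates 1 and 3. The replicate block gave 0 there (TMT1, -2.25, adjusted p = 0.0593) and changed no other count; replicate numbers were not shown to pair arrays. For EAA against the reference on day 5 the count was 0 in all 18 arrays and 0 in the arrays compared only (0.0293% of all probe sets). It was 3 without the MEA day 5 group and 3 with array weights (3.12%). For EAA on day 1 it was 2 in the arrays compared only (1.11%), 2 with array weights (0.96%) and 2 in the 9 arrays of day 1, against 0. The EAA change with time less that of the reference gave 2 without the MEA day 5 group, 1 in the arrays compared only (0.418%) and 2 with array weights (2.21%), against 0. MEA against the reference on day 5 gave 0 in the arrays compared only (0%) and 8 with array weights (44.1%), against 3. EAA against MEA on day 1 gave 1 in the arrays compared only (1.24%) and 1 in the 9 arrays of day 1, against 0. The MEA change with time gave 5 with array weights (23.7%) and 4 without MEA day 5 replicates 1 and 3, against 0. Less the change in the reference, it gave 7 with array weights (32.9%) and 1 without those replicates, against 0. Array weights put MEA day 5 replicate 2 at 0.0764.

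With 1 array left out, counts ran from 0 to 0 for EAA on day 1, MEA on day 1 and EAA against MEA on day 1. They ran from 0 to 5 for EAA on day 5 (the model without the MEA day 5 group included), 1 to 6 for MEA on day 5, 0 to 6 for EAA against MEA on day 5, 5 to 6 for time in the reference, 4 to 4 for time with EAA, 0 to 3 for time with MEA, 0 to 4 for EAA time less reference time and 0 to 5 for MEA time less reference time. No share of all probe sets is given for runs with 1 array left out, here or above. Such counts therefore cannot be told apart from a change in calls over the whole array.

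Signs of differences that had not passed were followed in all 9 genes for time in each group and EAA time less reference time. The same held for EAA against the reference, and MEA against the reference on day 5. In other contrasts only some genes were followed. There, between EAA and MEA on day 5, 6 of the 9 differences were positive in all 18 arrays. Without MEA day 5 replicates 1 and 3, 2 were positive. For MEA time less reference time these counts were 3 and 4. The signs followed changed as given next. Array weights gave -0.98 for SWEET4 (MEA against reference, day 5), -0.36 for SWEET1 and -0.075 for SWEET17 (time with MEA). Leaving out MEA day 5 replicates 1 and 3 gave 0.92 for SWEET1, 2.72 for SAG29 and -0.58 for TMT1 (MEA against reference, day 5), -0.54 for SAG29 (EAA against MEA, day 5), and 0.55 for SWEET4, 1.05 for SWEET11 and 0.41 for SWEET13 (time with MEA). With 1 array left out the ranges that crossed 0 were, for EAA on day 1, -0.12 to 0.20 (SAG29), -0.13 to 0.21 (SWEET11) and -0.10 to 0.23 (SWEET2). For MEA on day 5 they were -2.51 to 0.48 (SAG29) and -0.73 to 0.55 (SWEET4), for time with EAA -0.28 to 0.0089 (SWEET17), and for time with MEA -0.37 to 1.06 (SWEET1), -0.89 to 0.18 (SWEET11), -0.58 to 0.18 (SWEET13) and -0.088 to 0.14 (SWEET17). Of the 27 genes named as most alike, 7 remained by Spearman's rho and 24 after median centring. The search of promoter motifs was not run. The models without the MEA day 5 group with an array left out, and of the 9 arrays of day 1, were chosen after seeing the data. The deposited values carry no detection calls. Signals near 4.01, such as SWEET2 on day 1 and TMT1 with EAA on day 5, limit the size of a difference.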
